A study of Mus musculus with 18 samples.

Results

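The regions described here are those with the strongest peaks of open chromatin in every population the study profiled, blood stem cells and progenitors alike, whatever the genotype or treatment. They were chosen by their deposited strength. In each of 6 peak lists, overlapping rows were merged into regions, and the strength of a region was its highest −log10 p. A region of the vehicle HSC list was a member if it lay in the top 10% of that list and overlapped, by at least 1 bp, a top 10% region of each of the other lists. The rule found 2966 members among 80100 vehicle HSC regions, which is 3.70%, and the 6 lists held 358828 regions in all. Of the members, 2950 met exactly 1 top region in every other list. Because strength chose them, their strength and fold enrichment are described below without a test.

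The study profiled mouse haematopoietic stem cells (HSC) and cells labelled HPC, the more mature progenitors, by ATAC-seq, in which the Tn5 transposase cuts and tags accessible DNA. Its 18 samples formed 6 groups. Knockout HPC came from 2 samples and knockout HSC from 2, both from mice with floxed Kmt2c alleles and Vav-Cre, a Cre that is active in blood cells, at 8 weeks of age. Wild-type HPC came from 4 samples and wild-type HSC from 2, also at 8 weeks. The 5-fluorouracil HSC group held 4 samples of wild-type mice aged 16 weeks that had received 3 injections of 150 mg/kg, 1 every 3 weeks. The vehicle HSC group held 4 samples of wild-type mice of the same age that had received PBS on the same schedule. Kmt2c is a histone methyltransferase known mainly for its role at enhancers, and 5-fluorouracil is an antimetabolite that kills dividing cells. The markers of the sort are not given in the labels. Each group has 1 list that stands for all its samples, so no value below has a replicate, and treatment at 16 weeks cannot be told apart from age when it is set beside the 8-week lists. Read depth is unknown, and −log10 p grows with depth, so strengths were ranked within a list only.

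As background, a core of promoters is open in nearly every cell type, because general factors hold the nucleosomes apart there. One of them is NF-Y, which binds the CCAAT box, bends DNA much as a histone pair does and sits upstream of many housekeeping and cell cycle genes. Away from promoters, open sites are mostly enhancers, which differ between cell types, and insulators bound by CTCF, which differ little.

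Of the motifs searched, the CCAAT box was the one whose share in member promoters lay furthest above that of other strong promoters, so 6 promoters are shown first. They are those of the 5 members of lowest mean rank whose vehicle HSC summit, the point of highest signal, lay inside the promoter window of a gene, followed by that of Runx3, the blood transcription factor of lowest mean rank. Mean rank is the rank by strength as a percent of the list, averaged over the 6 lists. Each promoter runs over 300 bases, 250 before the start site and 50 after it, in the direction of transcription. The sequences are RefSeq's, build GRCm38.p6, and capitals mark CCAAT, or ATTGG where the box reads on the other strand.
Mxd4: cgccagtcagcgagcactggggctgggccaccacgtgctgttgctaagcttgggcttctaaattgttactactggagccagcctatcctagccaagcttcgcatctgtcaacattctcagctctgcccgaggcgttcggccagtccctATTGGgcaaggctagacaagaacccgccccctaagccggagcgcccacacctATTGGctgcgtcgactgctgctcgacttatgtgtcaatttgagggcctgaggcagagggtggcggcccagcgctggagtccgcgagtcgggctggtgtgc
Arrdc4: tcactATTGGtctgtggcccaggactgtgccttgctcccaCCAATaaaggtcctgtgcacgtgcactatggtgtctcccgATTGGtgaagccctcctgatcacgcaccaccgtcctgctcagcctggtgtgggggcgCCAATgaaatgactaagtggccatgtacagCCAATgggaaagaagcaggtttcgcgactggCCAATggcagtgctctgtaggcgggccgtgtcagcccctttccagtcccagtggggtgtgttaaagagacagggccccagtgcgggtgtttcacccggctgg
Kdm4a: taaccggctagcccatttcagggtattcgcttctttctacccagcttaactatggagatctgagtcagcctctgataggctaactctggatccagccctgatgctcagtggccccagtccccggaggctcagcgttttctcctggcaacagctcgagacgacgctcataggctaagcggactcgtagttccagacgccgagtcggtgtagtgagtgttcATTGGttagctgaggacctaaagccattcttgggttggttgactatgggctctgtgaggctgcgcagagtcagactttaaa
Zfp687: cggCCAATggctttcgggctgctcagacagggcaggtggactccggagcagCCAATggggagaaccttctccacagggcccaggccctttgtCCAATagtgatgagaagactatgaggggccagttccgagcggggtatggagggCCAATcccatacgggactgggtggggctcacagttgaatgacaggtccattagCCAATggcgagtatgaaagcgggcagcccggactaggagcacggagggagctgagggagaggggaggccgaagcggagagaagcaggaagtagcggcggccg
Hmgb2: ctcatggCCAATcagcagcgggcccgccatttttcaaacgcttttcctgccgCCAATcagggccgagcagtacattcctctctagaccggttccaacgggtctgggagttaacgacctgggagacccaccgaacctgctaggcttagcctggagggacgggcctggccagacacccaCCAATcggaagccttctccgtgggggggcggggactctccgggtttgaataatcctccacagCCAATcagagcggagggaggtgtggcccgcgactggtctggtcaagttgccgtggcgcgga
Runx3: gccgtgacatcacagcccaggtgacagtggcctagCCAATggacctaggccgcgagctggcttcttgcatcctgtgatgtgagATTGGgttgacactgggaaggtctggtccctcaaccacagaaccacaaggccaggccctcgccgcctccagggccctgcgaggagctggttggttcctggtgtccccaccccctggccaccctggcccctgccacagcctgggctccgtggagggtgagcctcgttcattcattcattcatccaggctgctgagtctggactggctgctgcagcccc

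Mxd4, which encodes a repressor that competes with MYC for its partner MAX, has its promoter at chr5:34187661-34187960 on the minus strand. It held 2 boxes, and the vehicle HSC summit lay 170 bp upstream of the start and 70 bp from the centre of the nearer box. The promoter of Arrdc4, an arrestin-domain gene, lies at chr7:68749189-68749488 on the minus strand and held 6 boxes, the nearest 19 bp from the summit. That of Kdm4a, a histone demethylase, at chr4:118179994-118180293 on the minus strand, held 1 box, 15 bp from the summit. Zfp687, a zinc finger gene, had 5 boxes at chr3:95015408-95015707 on the minus strand, the nearest 17 bp from the summit. Hmgb2, a DNA-bending protein of dividing cells, had 4 boxes at chr8:57511593-57511892 on the plus strand, with the summit 58 bp from the nearest. In Runx3, at chr4:135120395-135120694 on the plus strand, the summit lay 4 bp from the centre of 1 of 2 boxes. A match of letters is a description and does not show that NF-Y was bound.

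Over all member promoters the box was frequent and often repeated. Of 1507 genes with a start site inside a member, 1006 had at least 1 CCAAT box in the window, which is 66.8% (95% Wilson interval 64.3 to 69.1). The share was 45.5% (43.4 to 47.5) of 2289 genes whose start lay in another region of the vehicle top 10%, 30.2% (29.2 to 31.3) of 7079 in weaker vehicle regions and 39.0% (37.9 to 40.1) of 7765 with no vehicle region. Across all 17492 genes with a promoter sequence it was 39.0%. Each gene counted once in a set, and a gene with several starts can stand in more than 1 set. At least 2 boxes were present in 41.2% of member promoters (38.7 to 43.7), 20.3% of the other top 10%, 7.73% of weaker vehicle regions and 10.5% of promoters with no region. At least 3 were present in 20.4% of member promoters and in 7.51%, 1.53% and 2.32% of the same comparison sets. Member promoters thus carried 1.41 boxes each, against 0.761 in the rest of the top 10%. These sets differ in strength by construction, with median vehicle fold enrichments of 23.2 in all members and 20.2 in the other top 10%. The part of strength in the box shares was not tested. Wilson intervals here and below treat regions and genes as independent, which neighbours are not, and cover counting error only.

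In base composition the member promoters were close to the other strong promoters. Member promoters had a median GC content of 60.7% and 21 CpG dinucleotides in 300 bases, the other top 10% 62.0% and 22, and promoters with no vehicle region 47.3% and 3. Within the low, middle and high GC bands, which split the member promoters into about equal parts, boxes were present in 67.7%, 69.6% and 62.6% of member promoters. Within those same limits the shares were 49.0%, 48.6% and 40.6% in the other top 10%, so the gap was present at each GC level. The share did not fall evenly with strength. It was 53.9% (52.3 to 55.4) in the strongest 10% of the vehicle list, members included, and between 25.8% and 35.7% in the 9 weaker bins of 10%. All 9 values were below the share of 39.0% in promoters with no vehicle region, and the plot of shares by strength shows a single step after the strongest bin.

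**Figure D1:**
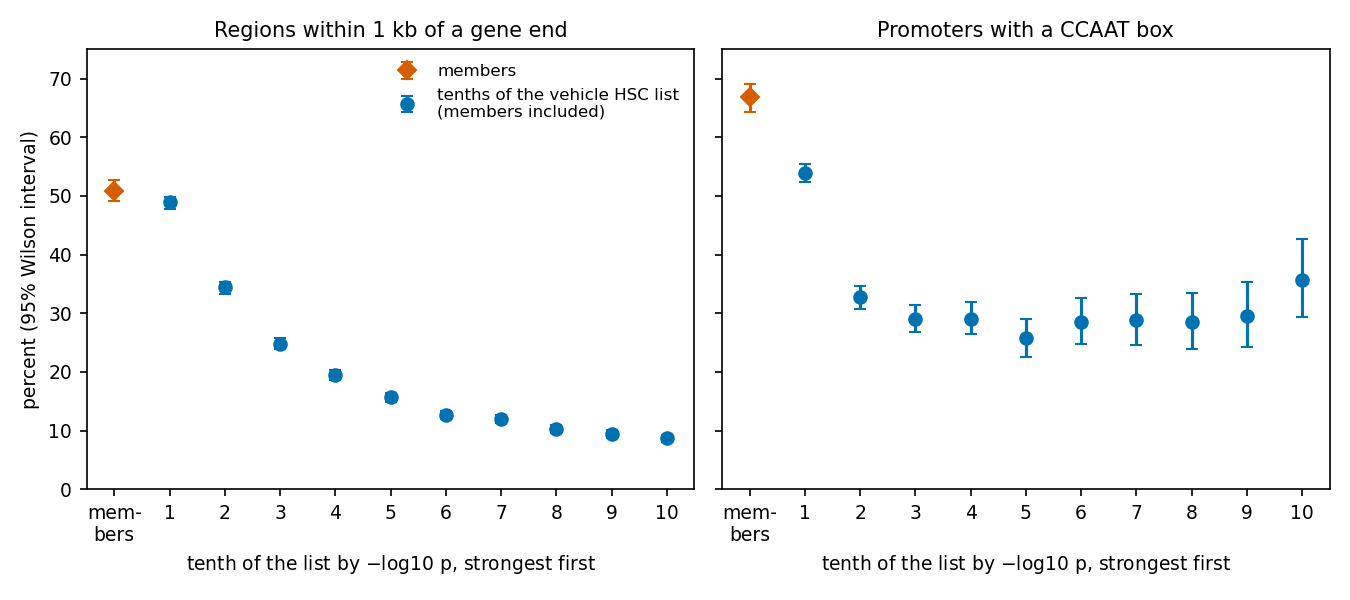
Share of vehicle HSC regions within 1 kb of a gene end (left) and share of promoters in such regions with a CCAAT box (right), in percent with 95% Wilson intervals, for the members (diamond) and for each 10% of the list by −log10 p, strongest first (circles, members included in the strongest). The share at a gene end declines bin by bin to 8.68%, while the share with a box is 66.8% in members, 53.9% in the strongest bin and 25.8% to 35.7% in the others.

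The other motifs searched, all on both strands and none containing the letters of the box, did not single out the members in this way. GGGCGG, read by SP1 and KLF factors, was present in 70.4% of member promoters (68.1 to 72.7) and 71.1% of the other top 10%, against 45.9% of all promoters. The ETS letters CCGGAAG were present in 20% of member promoters (18.1 to 22.1) and 23.1% of the other top 10%, against 11.8% of all. GCGCATGC, for NRF1, was less frequent in member promoters, at 3.72% (2.87 to 4.79), than in the other top 10%, at 6.47% (5.53 to 7.55), with 3.57% over all. CTCGCGAG, for ZBTB33, likewise stood at 1.33% (0.861 to 2.04) against 3.06% (2.43 to 3.85), with 1.26% over all. The YY1 letters AAGATGGCG were in 4.71% of member promoters (3.75 to 5.90) and 3.45% (2.78 to 4.28) of the other top 10%, with 1.93% over all. The TATA letters TATAAA stood at 4.18% in member promoters, 5.81% in the other top 10% and 13.3% over all. The RUNX letters TGTGGTT stood at 3.58% in member promoters, 3.67% in the other top 10% and 4.81% over all. The GATA letters AGATAA stood at 4.05%, 5.37% and 9.86% in the same sets. AP-1 letters, TGANTCA, stood at 4.11%, 4.06% and 7.05%. In promoters with no vehicle region the RUNX, GATA and AP-1 letters stood at 6.67%, 15.6% and 10.7%. A core of the CTCF motif, CNAGGNGGC, was in 15.0% of member promoters (13.3 to 16.9) and 12.7% (11.4 to 14.1) of the other top 10%, with 9.87% over all. CRE letters (TGACGTCA) were in 2.85% and E-box letters (CACGTG) in 8.96% of member promoters, against 3.93% and 9.65% of the other top 10% and, for the E-box, 7.75% of all promoters.

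The summit itself lay mostly upstream of the start site. Among 1332 members that hold a start site, the vehicle HSC summit had a median position of −76 bp relative to the start (quartiles −134 and −27 bp), and 83.9% (81.8 to 85.7) lay on the upstream side. In 2046 other top 10% regions the median was −47 bp and the share 72.2% (70.2 to 74.1), and in 7004 weaker regions −22 bp and 60.6% (59.4 to 61.7). The boxes of member promoters had a median position of −86 bp, and 48.5% of them read on the reverse strand. The median was −77 bp in the other top 10%, −91 bp in weaker regions and −94 bp with no vehicle region. The window searched lies mostly upstream, so an upstream median follows from it, and box position did not set the members apart. Where promoter, box and summit could be set side by side, the nearest box centre lay within 50 bp of the summit in 703 of 871 member promoters, 80.7% (78.0 to 83.2), with a median distance of 21 bp. The share was 72.5% (69.4 to 75.4) in the other top 10% and 52.3% (49.8 to 54.8) in weaker regions. Member promoters also hold more boxes, and the part of that number in the distances was not tested.

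**Figure D2:**
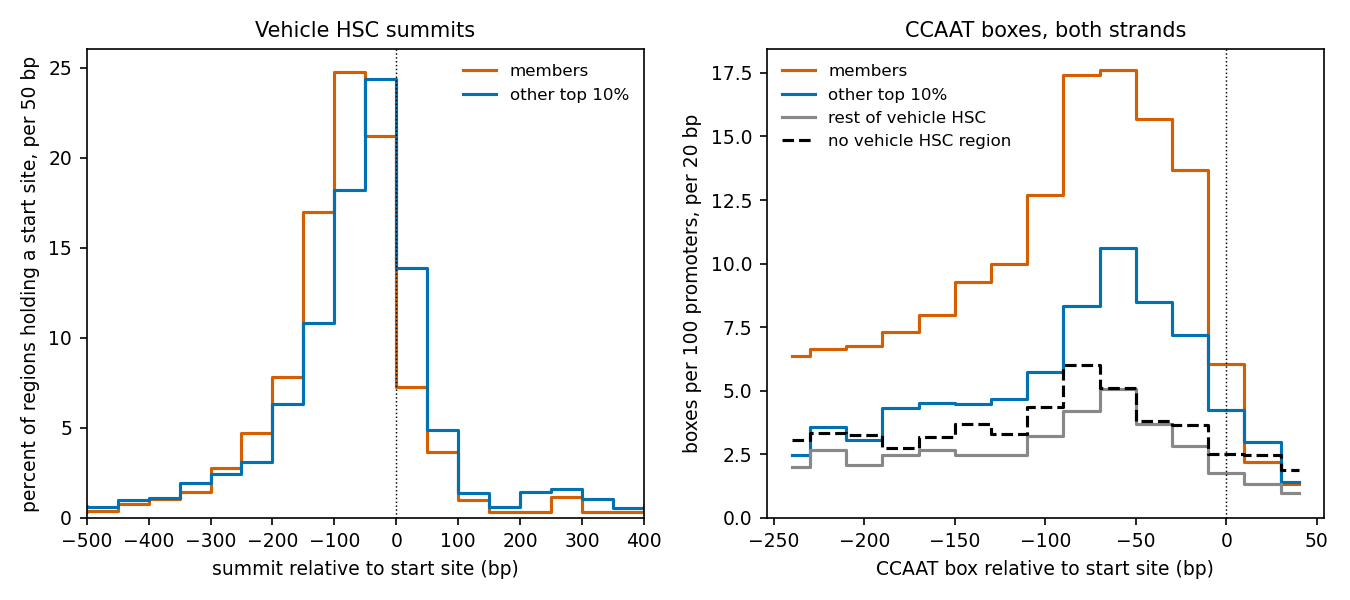
Position of the vehicle HSC summit relative to the start site, as percent of regions holding a start per 50 bp (left), and of CCAAT boxes on either strand, as boxes per 100 promoters per 20 bp (right); 0 is the start site and negative values are upstream. Summits of members lie further upstream, with a median of −76 bp against −47 bp in the other top 10%, and member promoters carry more boxes over the whole upstream window.

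Summits of the members were also held in place between lists, a property the rule did not use. The strongest summits of the 6 lists lay within a median span of 16 bp (quartiles 10 and 24 bp). Of the members, 92.7% (91.7 to 93.6) had all 6 summits within 50 bp. The same held for 81.9% (80.8 to 83.0) of 4889 other top 10% regions found in all lists, whose median span was 21 bp, and for 79.2% (78.7 to 79.8) of 22477 weaker shared regions, at 25 bp. These sets differ in strength by construction, and the part of strength in the spans was not tested. In 9 members the summits spanned over 500 bp, among them the member inside Sema4b, at 1006 bp. A single summit was listed in 26.4% of members, 20.1% of the other top 10% and 44.9% of weaker regions. The median member was 919 bp wide in the vehicle list, beside 967 bp for the other top 10% and 599 bp for the rest.

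About as many members lay away from genes' ends as at them. A protein-coding gene end was within 1 kb of 1509 members, 50.9% (49.1 to 52.7). It was within 1 kb of 47.7% (46.3 to 49.0) of the other 5044 regions of the vehicle top 10% and of 16.4% (16.1 to 16.7) of the 72090 weaker regions. A listed start site was inside 1332 of 2890 members outside chromosome 18, 46.1% (44.3 to 47.9), and inside 41.8% (40.4 to 43.2) and 10% (9.81 to 10.3) of those comparison sets. Starts on both strands, as at divergent promoters, were present in 13.0% (11.3 to 14.9) of the members that hold a start, 11.9% (10.6 to 13.4) of the other top 10% and 5.01% (4.52 to 5.55) of the rest. A further 872 members (29.4%) lay inside a gene, 499 (16.8%) outside any gene with 1 within 100 kb, and 86 (2.90%) had none in that range. For the 1303 members at no gene end but with 1 within 100 kb, it was a median of 13.6 kb away (quartiles 5.77 and 31.1 kb). Ranking by fold enrichment in place of −log10 p would put 37.0% of the resulting regions at a gene end.

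The members were not spread over chromosomes exactly as all vehicle regions were. Chromosome 11 held 255 members, 8.60% (7.64 to 9.66), beside 7.16% of vehicle regions, and chromosome 7 held 234, 7.89% (6.97 to 8.91), beside 5.99%. Chromosome 10 held 3.94% (3.30 to 4.71) of members and 5.36% of vehicle regions. The X chromosome held 31 members, 1.05% (0.737 to 1.48), beside 1.90% of the other top 10% and 2.19% of vehicle regions. Ranking by fold enrichment in place of −log10 p put 2.00% of the resulting regions on X. Chromosome Y held 0 members among its 7 vehicle regions. Within 10 kb of a member there was a median of 1 other vehicle region, 31.6% of members had none, and 144 (4.86%) had another member. The other top 10% had the same median, with none beside 31.0% of them and another of their kind beside 4.92%. Transfer RNA genes overlapped 11 members (0.371%, 0.207 to 0.663) and 0.456% of the other top 10%, and microRNA genes overlapped 8 (0.270%), among them Mir423 on chromosome 11, and 0.476% of the other top 10%.

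The strongest member of all lay inside Agpat3, a lysophospholipid acyltransferase gene, at chr10:78297702-78298666. It ranked first by strength in the 5-fluorouracil and vehicle HSC lists and second in the 4 lists of 8-week mice. Its fold enrichment, the signal at the summit over the local background, was 25.6 in knockout HPC, 26.0 in wild-type HPC, 28.1 in knockout HSC, 28.2 in wild-type HSC, 25.1 in 5-fluorouracil HSC and 24.6 in vehicle HSC. The 9 members next in mean rank were at a gene end with 1 exception. They were those of Mxd4, Arrdc4, Kdm4a, Zfp687 and Hmgb2, then Fbrs, Cdca2, a mitotic chromatin regulator, and Mtmr4, a lipid phosphatase. The exception lay outside any gene, 54120 bp from Lrpprc, at chr17:84844906-84845507, with a fold enrichment between 28.6 in vehicle HSC and 33.2 in knockout HPC.

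In fold enrichment the members were close to the other strong regions of the 8-week lists. Their median was 25.4 in knockout HPC, 25.9 in wild-type HPC, 27.3 in knockout HSC, 26.7 in wild-type HSC, 23.6 in 5-fluorouracil HSC and 23.2 in vehicle HSC. The other top 10% regions had medians of 25.6, 25, 25.9, 25.2, 20.3 and 20.2 in the same lists, and all regions 14.2, 13.7, 15.1, 14.6, 10.4 and 10.2. The members made up 56.3% of the top 10% of knockout HPC, 45.2% of wild-type HPC, 61.1% of knockout HSC, 74.1% of wild-type HSC, 41.6% of 5-fluorouracil HSC and 37.0% of vehicle HSC, shares that follow the lengths of the lists. Of the 8010 strong vehicle regions, 686 were in the top 10% of no other list and 1968 in that of 1 other list only. Absence from a top 10% was hardly ever absence from a list. A region was present at any strength for 7871 of the 8010 in knockout HPC, 7927 in wild-type HPC, 8006 in knockout HSC, 8009 in wild-type HSC and 8009 in 5-fluorouracil HSC. A top 10% region was lacking in a single list only for 293 in knockout HPC, 24 in wild-type HPC, 68 in knockout HSC, 273 in wild-type HSC and 50 in 5-fluorouracil HSC.

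**Figure D3:**
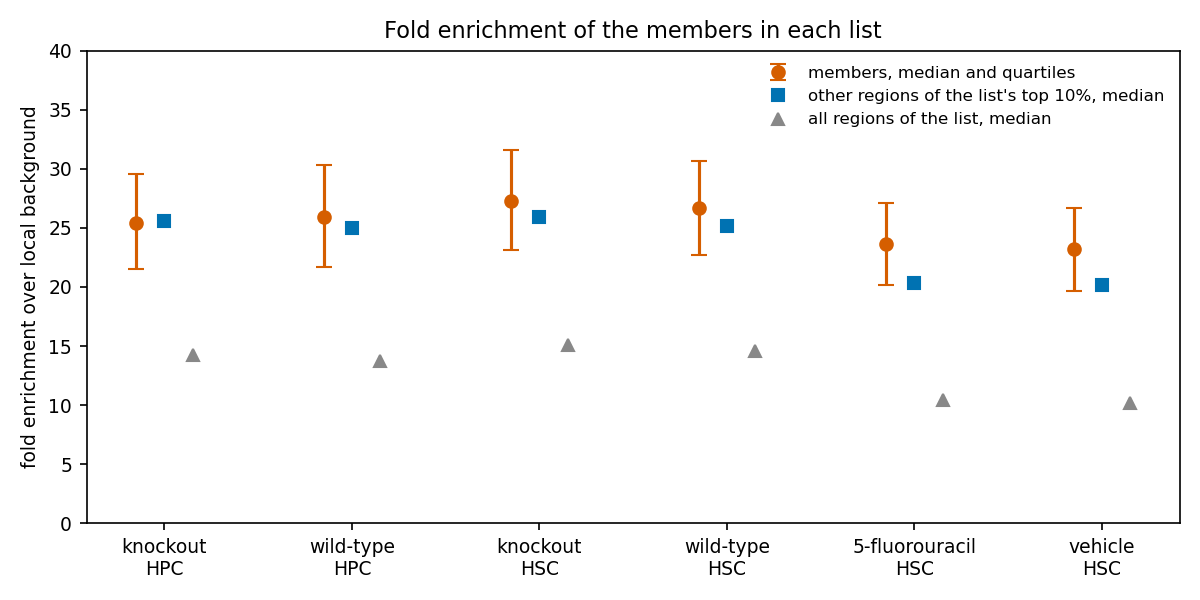
Fold enrichment over local background in each list for the matched members (circles, median with quartiles), the other regions of the list's top 10% (squares, median) and all regions of the list (triangles, median). Members have medians of 23.2 to 27.3 in the 6 lists, and all regions 10.2 to 15.1.

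The threshold cut through a continuum. Just inside it in the vehicle list were members in Lrch1, at the end of Il3ra, the interleukin-3 receptor alpha chain, and in Prkce, with vehicle fold enrichments of 19.3, 16.8 and 20.8. Taken as just outside it were regions in Mafg, near Atp6v1c1 and near Ocrl, with 9.54, 14.9 and 32.6. They ranked 8021, 8112 and 8203 in vehicle HSC, where the top 10% held 8010 regions, so they were not the next in rank. All lay in the top 10% of every other list. Of the 5 strongest vehicle regions that were no members, 4 were below the top 10% of an HPC list. One at the end of Capn8 ranked 73 in vehicle HSC and 10956 in knockout HPC. A region near Btg2, an antiproliferative gene, at chr1:134072869-134073640, had a fold enrichment of 3.48 in knockout HPC, 4.77 in wild-type HPC, 13.0 in knockout HSC, 13.6 in wild-type HSC, 20 in 5-fluorouracil HSC and 20 in vehicle HSC. A different region near Btg2, at chr1:134067067-134067604, was a member, with 19.3, 21.6, 25.9, 24.8, 21.3 and 21.5 in the same lists.

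Which genes have a member at their end was read against 8.45%, the share of all 21887 protein-coding genes with a member within 1 kb of an end. Lists of general cell functions are given first, among 20 in all. Translation factors had 10 of 42 genes with a member (23.8%, 13.5 to 38.5), among them Eif4g2, an initiation factor, Etf1, the release factor, Eif6, whose member also lies at an end of BC029722, and Eif4a1. The p53 and DNA repair list had 8 of 35 (22.9%, 12.1 to 39.0), with Gadd45a among them and Brca1, whose member also lies at an end of Nbr1. Mitochondrial respiration had 9 of 47 (19.1%, 10.4 to 32.5), with Ndufs8, Ndufa6, Ndufv1 and Cox8a. Cell cycle genes had 7 of 40 (17.5%, 8.75 to 31.9), with E2f3, Ccna2, Cdkn2d and Cdc20. Splicing and RNA processing had 8 of 50 (16.0%, 8.34 to 28.5) and ribosomal proteins 11 of 77 (14.3%, 8.17 to 23.8), with intervals that reach the background. Proteasome genes had 2 of 31 (6.45%), Psma4 and Psmb3. High shares in these lists were not particular to the members. Any region of the vehicle top 10% was at an end of 47.6% of translation factor genes and 58.0% of splicing genes, against 21.4% of all protein-coding genes. A vehicle region of any strength was at an end of between 94.3% and 100% of the genes of each of these lists. The share was 65.3% over all protein-coding genes. The background of 8.45% thus includes many genes with no vehicle region at an end, and a background without them was not computed. With strength read from fold enrichment, 37 genes of the 20 lists had a member at an end in place of 85.

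Among lists of blood functions, haematopoietic transcription factors had 8 of 45 genes with a member at an end (17.8%, 9.29 to 31.3). They were Runx3, Nfe2, Stat5a, Stat5b, Stat3, Spi1, Lyl1 and Hhex, and 1 member stood for both Stat5a and Stat5b, which lie head to head. The Runx3 member had fold enrichments of 28.9 in knockout HPC, 28.1 in wild-type HPC, 31.7 in knockout HSC, 33.4 in wild-type HSC, 29.4 in 5-fluorouracil HSC and 28.6 in vehicle HSC. Interferon and antigen presentation genes had 6 of 32 (18.8%, 8.89 to 35.3), with Ifnar1, Ifngr1, Stat2 and H2-K1. Any vehicle top 10% region was at an end of 53.1% of these genes and 31.1% of haematopoietic transcription factors, against 21.4% of all. For a vehicle region of any strength the shares were 96.9% and 91.1%, against 65.3% of all. Stem cell genes had 3 of 32 (9.38%), among them Robo4 and Txnip, lymphoid genes 3 of 31 (9.68%), namely Cd3d, Cd2 and Flt3, and chromatin regulators 3 of 50 (6%), namely Asxl1, Men1 and Hdac1. Pan-leukocyte genes had 2 of 30 (6.67%), Laptm5 and Dock2, and immediate early genes 2 of 29 (6.90%), Atf4 and Klf2. The myeloid progenitor list had 1 of 22, Gstm1, and the erythroid and megakaryocyte list 1 of 28, Ermap, whose member also lies at an end of Zfp691.

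No gene of the neutrophil, macrophage and mast cell list (30 genes), the stroma and endothelium list (25) or the Hox clusters (32) had a member at an end, although 9, 15 and 25 of them had some vehicle region there. A count of 0 has Wilson upper limits of 11.4%, 13.3% and 10.7%, so all 3 intervals still hold the background of 8.45%. Of the 35 neuron, liver and muscle genes only Apoa2 had a member, at chr1:171222291-171223091, and that region also lies at an end of Tomm40l. Some vehicle region was at an end of 29 of the 30 pan-leukocyte genes (96.7%), much as of ribosomal protein genes (98.7%), against 65.3% of all protein-coding genes.

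**Figure D4:**
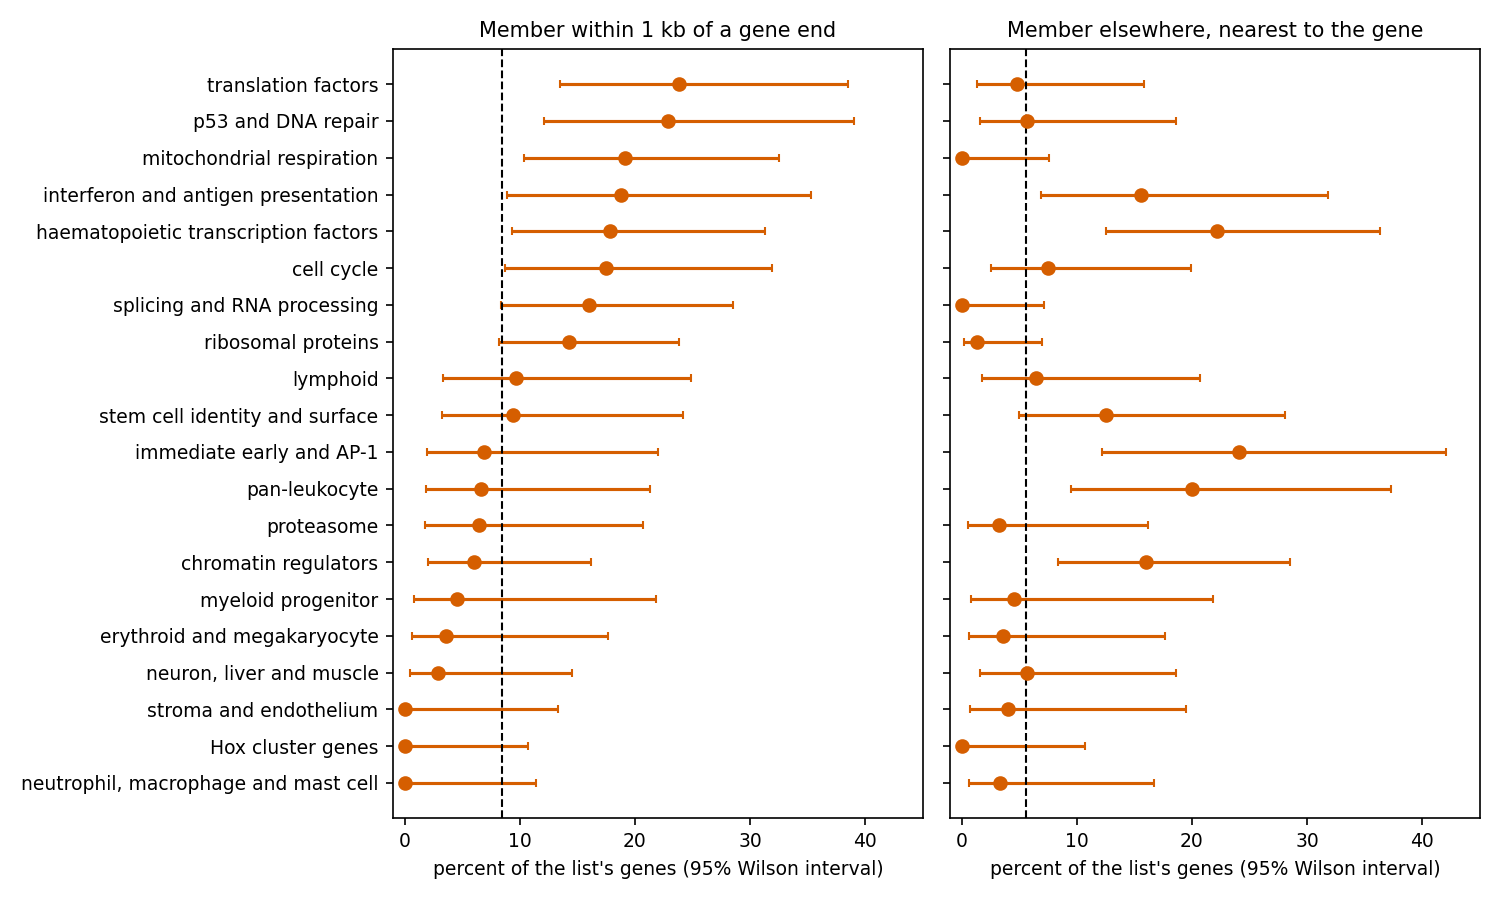
Percent of the genes of each of 20 lists with a member within 1 kb of a gene end (left) or with a member elsewhere for which it is the nearest gene (right), with 95% Wilson intervals; dashed lines mark all protein-coding genes, 8.45% and 5.54%. Translation factors are highest at gene ends with 23.8% and near the line elsewhere with 4.76%, while haematopoietic transcription factors have 17.8% and 22.2%.

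Members at no gene end were counted at the same lists by their nearest gene. They had 1212 nearest genes, 5.54% of all, and long genes have more room for them, so the median gene length is given beside each share (17.2 kb over all genes). Haematopoietic transcription factors had 10 of 45 genes (22.2%, 12.5 to 36.3; 47.3 kb), with 15 members. These comprised 3 inside Nfia, 2 each inside Runx1 and Meis1, 2 near or inside Runx2, and 1 each at Mef2c, Gfi1b, Zfpm1, Prdm16, Etv6 and Runx3. Meis1 and Prdm16 are known for stem cell maintenance, Runx1 for the formation of blood stem cells, and Gfi1b and Zfpm1 for red cell and platelet development. The Mef2c member, at chr13:83571800-83572729, had a fold enrichment of 25.1 in knockout HPC, 24.2 in wild-type HPC, 29.4 in knockout HSC, 27.0 in wild-type HSC, 24.3 in 5-fluorouracil HSC and 23.6 in vehicle HSC.

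Immediate early genes, which are short, had 7 of 29 (24.1%, 12.2 to 42.1; 5.25 kb), all with members outside the gene, at Klf2, Btg2, Egr1, Nr4a1, Jun, Ier2 and Fos. The Jun member lay 53697 bp from the gene and the Fos member 18040 bp. Pan-leukocyte genes had 6 of 30 (20%, 9.51 to 37.3; 29.8 kb), with members inside Lcp2, Arhgdib, Vav1 and Evi2b, outside Cd44, and both inside and outside Ptprc, which encodes the pan-leukocyte phosphatase. The Ptprc member at chr1:138136186-138136814 had a fold enrichment of 32.6 in knockout HPC, 30.8 in wild-type HPC, 32.0 in knockout HSC, 30.6 in wild-type HSC, 26.8 in 5-fluorouracil HSC and 27.4 in vehicle HSC. Chromatin regulators had 8 of 50 (16.0%, 8.34 to 28.5; 45.7 kb), all inside the gene, with 3 in Dnmt3a and 1 each in Arid1b, Tet3, Arid2, Kdm6b, Arid1a, Kmt2d and Setd1b. Stem cell genes had 4 of 32 (12.5%, 4.97 to 28.1; 28.7 kb), with a region 73690 bp from Kit, the stem cell factor receptor, 1 inside Itga6, 2 inside Vwf and 1 inside Msi2, and the interval holds the background of 5.54%. The Kit member, at chr5:75730412-75731513, had 23.4, 24.2, 28.3, 27.7, 22.5 and 22.1 in the same lists. Interferon and antigen presentation genes had 5 of 32 (15.6%, 6.86 to 31.8; 9.74 kb), with members inside Tap2 and outside H2-Aa, H2-Ab1, Ifnar2 and Irf2. Splicing genes (0 of 50), mitochondrial respiration genes (0 of 47) and Hox genes (0 of 32) had no such member, and ribosomal protein genes had 1 of 77. The upper limits for those 3 lists were 7.13%, 7.56% and 10.7%, so their intervals still hold the background of 5.54%. The nearest gene need not be the one that a region controls.

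Most genes with a member had a single one. Of 2626 genes assigned 2880 members, 2409 had 1, 187 had 2, 23 had 3 and 7 had 4. The 7 were Bahcc1, Cbfa2t3, Mcfd2, Mn1, Rai1, Sgms1 and Stk10, to which the rule for naming genes adds Acap2 with 3. Cbfa2t3 encodes a corepressor known for a role in stem cell quiescence, and its 4 members span from inside the gene to 20197 bp beyond it. Mn1 had all 4 outside the gene, the farthest at 96293 bp, chr5:111553323-111554096, with a fold enrichment of 29.5 in knockout HPC, 28.1 in wild-type HPC, 33.3 in knockout HSC, 34.5 in wild-type HSC, 29.6 in 5-fluorouracil HSC and 28.8 in vehicle HSC. Sgms1 and Stk10 had all 4 inside the gene. The widest member, at the end of Lonrf1, measured 2344 bp, followed by members at Dgkz, Dennd4b, Ndel1 and Ttc28.

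To compare members between lists, the fold enrichment of each was divided by the median of the members in the same list, and log2 differences were taken. A change past 1.5-fold was called. With 1 list a group there is no test, and since the rule asks for strength in every list, small counts follow from it and are not read as stability. In wild-type HPC over wild-type HSC, 2 members were higher and 10 lower past 1.5-fold, where the background over 30332 regions found in all lists, each divided by their own median, was 6.36% higher and 6.50% lower. Divided by the members' median instead, it was 14.0% and 2.50%. In knockout HPC over knockout HSC, 2 were higher and 3 lower, with a background of 6.02% and 5.56%. In knockout HSC over wild-type HSC none was called in either direction, with a background of 1.79% and 1.44%, nor in knockout HPC over wild-type HPC, with 0.762% and 1.36%. In 5-fluorouracil HSC over vehicle HSC none was called, with 0.188% and 1.31%. On the members' median the backgrounds were 6.57% and 4.98% for knockout HPC over knockout HSC and 3.81% and 0.613% for knockout over wild-type HSC. They were 0.402% and 2.27% for knockout over wild-type HPC and 0.125% and 1.71% for 5-fluorouracil over vehicle HSC. These comparisons share lists. The scale matters here. Divided by the median of all 30332 shared regions, the counts of wild-type HPC over wild-type HSC were 0 higher and 70 lower. The background on that scale was the 6.36% and 6.50% given above. The log2 ratio of the wild-type HPC median to the wild-type HSC median was −0.04 for the members and 0.18 for the shared regions. The difference between these ratios was −0.22.

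Differences between members were spread more widely between cell types than between genotypes or treatments, as they were over all shared regions. The lists differ in sample number and in −log10 p, and the part of this in the spreads was not tested. For wild-type HPC over wild-type HSC the standard deviation of the log2 difference was 0.164 over the members and 0.391 over all shared regions. For knockout HPC over knockout HSC it was 0.158 and 0.374. The rule asks for strength in every list, so a narrower spread over the members is bound to it and is not read as stability. In 633 members (21.3%) both HPC lists lay above all 4 HSC lists on the members' scale, and in 529 (17.8%) both lay below. Over all shared regions the shares were 22.8% and 15.1% on that scale, and 18.6% and 20.2% when divided by their own median. With that other scale, a choice made after the data were seen, the counts of members were 130 (4.38%) and 447 (15.1%), both below the background of 18.6% and 20.2%. The number above in HPC thus rests on the scale. The 16 named members below kept their gap under both scales. They were chosen for the largest differences, so this follows closely from the choice. Of the 633, 51.3% (47.5 to 55.2) were at a gene end, beside 36.5% (32.5 to 40.7) of the 529 and 54.9% (52.6 to 57.2) of the others. With the other scale the shares were 43.1% (34.9 to 51.7), 40.3% (35.8 to 44.9) and 53.3% (51.3 to 55.3). No test of these shares was run. In bulk populations, less signal in every cell and fewer cells with the site open cannot be told apart.

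Among those above in HPC, the largest difference was inside Sema4b, a semaphorin gene, at chr7:80208628-80210114. Its fold enrichment was 23.1 in knockout HPC, 25.1 in wild-type HPC, 17.1 in knockout HSC, 15.0 in wild-type HSC, 12.6 in 5-fluorouracil HSC and 12.0 in vehicle HSC. The mean of the HPC lists minus that of the HSC lists was 0.75 (relative log2), and its summits lay up to 1006 bp apart between lists. The member inside Cdc6, which loads the replicative helicase, had 32.2 and 29.8 in the knockout and wild-type HPC lists and 25.2, 21.5, 19.0 and 19.0 in knockout, wild-type, 5-fluorouracil and vehicle HSC, a difference of 0.53. That at the end of Epb41, the red cell membrane protein gene, had 16.0 and 17.2 in the HPC lists and 12.5, 12.4, 10 and 9.81 in the HSC lists, a difference of 0.55. The others were at Tbc1d8 (0.65), Egln3 (0.60), Otub2 (0.57), Qsox1 (0.56) and Lipc (0.52).

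Among those above in HSC, the member at the end of Slc2a6, a sugar transporter gene, at chr2:27027690-27028989, differed most. It had 14.5 in knockout HPC, 15.6 in wild-type HPC, 29.4 in knockout HSC, 28.9 in wild-type HSC, 22.9 in 5-fluorouracil HSC and 23.0 in vehicle HSC, a relative difference of −0.81. Hdac4, a histone deacetylase gene, held a member with 21.6 and 20.8 in the HPC lists and 34.3, 34.1, 29.8 and 29.4 in the HSC lists, a difference of −0.61. Ripor1 stood at −0.67, Nup160 at −0.62, Enah at −0.58, Psap at −0.57, Galnt2 at −0.56 and Gtpbp1 at −0.53. In all 16 the 4 HSC lists of differing age, genotype and treatment lay on the same side of both HPC lists, which is how they were chosen.

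**Figure D5:**
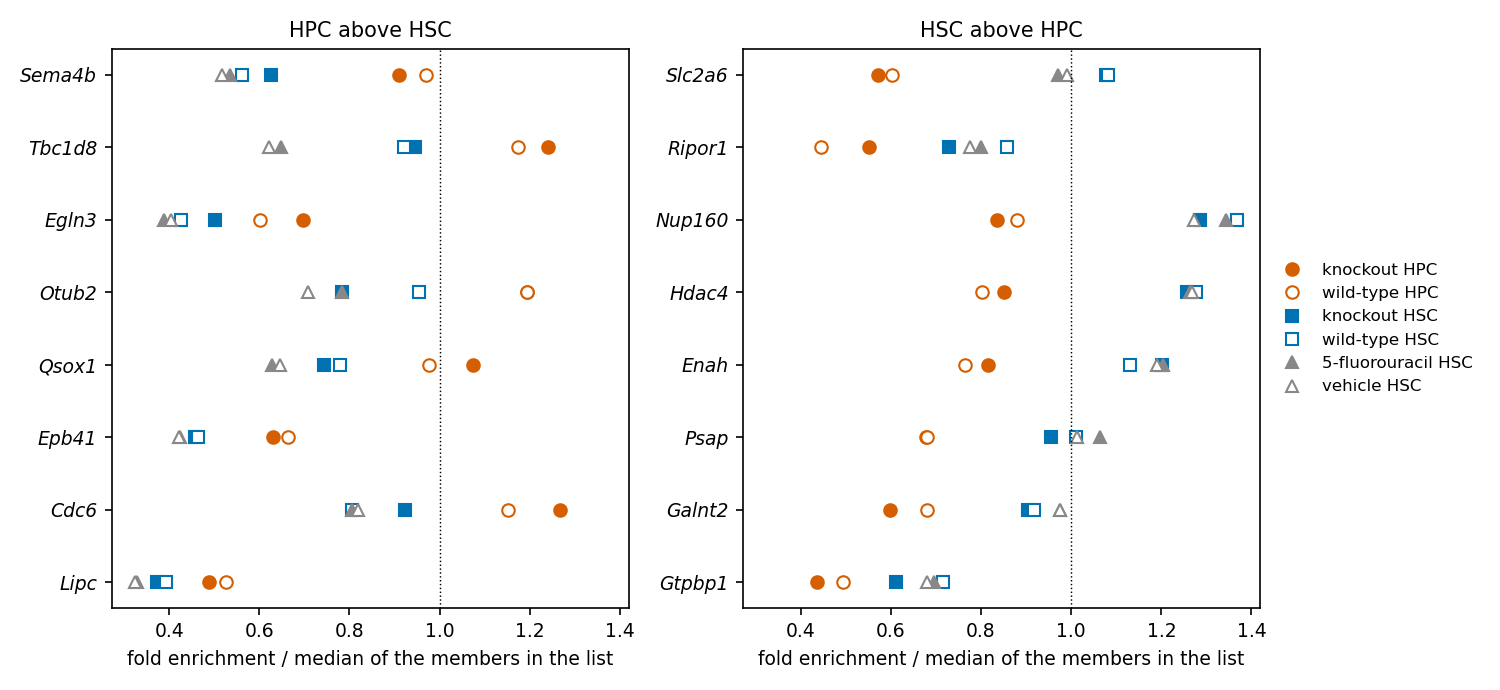
Fold enrichment divided by the median of all members in the same list for the 8 members furthest above in HPC (left) and in HSC (right) among those whose HPC and HSC lists do not overlap, with 1 point per list. Sema4b and Slc2a6 differ most, by a mean of 0.75 and −0.81 (log2, HPC minus HSC).

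Without Kmt2c, the members furthest up in knockout over wild-type HSC were at the ends of Txnip (0.42, log2), Robo4 (0.37) and Arl6ip1 (0.35) and inside Mad1l1 (0.39), and among those furthest down were the ends of Glul (−0.37), Zbtb48 (−0.34) and Pabpn1 (−0.34). Txnip, which binds thioredoxin and is known for its part in stem cell quiescence, had 16.3 in knockout HSC and 11.9 in wild-type HSC, and in HPC 17.2 in the knockout and 14.8 in the wild type. Robo4, a receptor known in stem cells and endothelium, had 32.0 and 24.2 in knockout and wild-type HSC and 28.2 and 26.9 in knockout and wild-type HPC. None of these passed 1.5-fold. In HPC, the knockout over the wild type was highest near Ythdf2 (0.45), inside Ripor1 (0.31), at Las1l (0.31) and near Gm7030 (0.31), and lowest at Casc1 (−0.38), Xrra1 (−0.35), Ddi2 (−0.33) and Stat3 (−0.33). The Stat3 member, of a cytokine signalling factor, had 13.1 in knockout HPC and 16.8 in wild-type HPC, with 14.3 in knockout HSC and 15.1 in wild-type HSC. The standard deviation of the log2 difference over the members was 0.108 in HSC and 0.1 in HPC. Over all shared regions it was 0.256 and 0.229, and the narrower spread of the members is again bound to the rule. Kmt2c itself held no member, and its peaks do not check the deletion.

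The log2 difference between the 5-fluorouracil and vehicle HSC lists had the smallest standard deviation, 0.061 over the members and 0.188 over all shared regions. The narrower spread of the members is again bound to the rule. Both lists stand for 4 samples each, while both knockout lists and the wild-type HSC list stand for 2. The lowest −log10 p of the top 10% was 918 in both, against 188 to 330 in the 8-week lists. The part of depth and sample number in the spreads was not tested, so a smaller spread is not read as a smaller effect. The furthest up were at Rora (0.28), Wwp2 (0.27), Adgrg3 (0.27) and Mbd5 (0.26), and among the furthest down were Slc43a2 (−0.40), B4galt5 (−0.24) and Snx24 (−0.22). Rora, a nuclear receptor gene, held a member with 26.6 in 5-fluorouracil HSC and 21.6 in vehicle HSC. The 4 lists of 8-week mice had 29.2 to 30.8. The median of all members was also higher in those lists, 25.4 to 27.3, against 23.6 in 5-fluorouracil HSC and 23.2 in vehicle HSC. Slc43a2, an amino acid transporter gene, held one with 9.84 in 5-fluorouracil HSC and 12.8 in vehicle HSC, and its summits spanned 156 bp between lists.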

How the data were processed

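Per the submitters' processing notes, the reads were handled with Bowtie2 and MACS2 and the build was mm10, also called GRCm38. The sources used here give neither versions nor how samples were pooled or peaks filtered, and the labels give RNA as the molecule of this assay of DNA, which was not resolved. The 6 deposited peak lists hold, per row, the authors' fold enrichment (a ratio of summit signal to local background), the −log10 p of the authors' peak caller, a deposited score that was not used and the deposited summit offset in bp.

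Overlapping rows of a list were merged with Python 3.11.15 and numpy 2.4.6. Regions take the highest −log10 p, and matched regions in another list the strongest overlapping one. Genes came from a RefSeq table of GRCm38.p6 (21887 protein-coding genes, without strand, so both ends within 1 kb stood for a start; otherwise the nearest body within 100 kb), and start sites and promoters from RefSeq promoter sequences, in which chromosome 18 was not analysed here. Of 744 list symbols 743 matched. The 13 motifs were searched on both strands.

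Named are the 10 members of lowest mean rank, up to 4 genes per list, the 8 genes with most members and the 5 widest. Also named are 3 regions on either side of the threshold, those outside it being in the top 10% of every other list. The most differing members of each comparison are named too, also where none passed 1.5-fold. Some genes this rule names are left out here. Members at no gene end were listed by gene list after their values were seen. The members, gene lists and motifs were chosen with earlier results of these data known. A group has a single list, so nothing was modelled, no p-value was computed and fold enrichment carries no interval. Finding members, with a fixed number of regions per list in place of the top 10%, and calling differences were tested on simulated data. The merging of rows was not.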

Additional observations from a re-analysis of the deposited data

How the results depend on the processing

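The settings tried were other thresholds, overlaps, strengths and lists to start from, other gene windows and other scalings. With the top 5% there were 1391 members, with 54.5% at a gene end, 45 list genes, a CCAAT box in 69.9% of promoters and 0.575% on X, and with the top 20% there were 6141, 47.2%, 164 list genes and 58.3% with a box. Against these, the main values were 2966 members, 50.9%, 85 list genes, 66.8% and 1.05%. An overlap of 50% of both regions gave 48.6% at a gene end. Strength by fold enrichment gave 37.0%, 37 list genes and 2.00% on X. An equal number from each list gave 54.2% and 69.1%. Gene windows of 500 bp and 5 kb gave 48.9% and 60.5%, and start sites within 1 kb 47.5%. Starting from knockout HPC, wild-type HPC, knockout HSC or wild-type HSC, the median width was that of those lists' regions, 620, 660, 615 and 608 bp in place of 919 bp. Region centres spanned 89 bp between lists, against 16 bp for summits. Not requiring 1 of the 5 lists other than vehicle HSC left between 2990 and 3259 members.

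Members past 1.5-fold, both directions together, numbered 12 in wild-type HPC over wild-type HSC, 5 in knockout HPC over knockout HSC and 0 in the other 3 comparisons. At 2-fold the first 2 became 0 and 0, and with members from the top 5% 4 and 0. Scaling by all shared regions gave 70 in the first. With −log10 p in place of fold enrichment, which depth and region width also set, the 5 comparisons gave 293, 279, 11 (knockout over wild-type HSC), 12 (knockout over wild-type HPC) and 5 (5-fluorouracil over vehicle HSC). The first 293 were 187 higher and 106 lower, against 2 and 10 by fold enrichment, and the 279 were 182 and 97, against 2 and 3. By the same other scaling, added after seeing the data, 130 members in place of 633 had both HPC lists above all HSC lists. The cause of these shifts was not tested. Motifs within 100 bp of summits were not run, as no genome sequence was used here. No paired analysis was possible because each group has a single list that pools its samples. Read depth is unknown, so no limit of detection can be given.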

Other observations

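Several values belong to no comparison above. The strongest region of all 4 lists of 8-week mice was no member. It lay at chr1:24612996-24613238, between the pseudogenes Gm10222 and Gm10925, the second of which has the synonym mt-Atp6, a mitochondrial gene. Its fold enrichment was 26.6 in knockout HPC, 31.6 in wild-type HPC, 30.7 in knockout HSC and 31.0 in wild-type HSC, where it ranked first, and 18.9 in 5-fluorouracil HSC, where it ranked 9884. The vehicle HSC list had no region there, so the rule could not take it.

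A region inside Prex1, a guanine nucleotide exchange factor gene, at chr2:166630109-166631141, missed the rule in the 5-fluorouracil list alone. There its fold enrichment was 24.8, against 24.7 in vehicle HSC, but its −log10 p was 104.0, against 3726, and its rank 42842, against 236. Of 49 strong vehicle regions whose only weak list was 5-fluorouracil HSC, it alone had over 0.8 of the vehicle fold enrichment with under 0.25 of the vehicle −log10 p.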
